A study of Mus musculus with 16 samples.

Results

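Immediate early genes are switched on within minutes of a stimulus, from factors already present in the cell, and 10 of them were followed here in mouse retina: the transcription factors Egr1, Egr2, Egr3, Fos, Fosb, Junb, Atf3 and Nr4a1, the phosphatase Dusp1 and the nuclear protein Ier2. They were chosen by gene name, with earlier results of these data known, and every array probe that carries such a name was taken. The same holds for the other gene lists below. Shares over all probes or genes are therefore set beside the counts as a description only. This gave 15 probes for 10 genes, of 43426 probes and 18585 named genes on the array. Of the members, 5 had 2 probes each (Egr3, Fos, Junb, Atf3 and Ier2) and 5 had 1 probe. Of the 15 probes, 14 were well above background in the sample channel on at least 3 arrays and were tested. The probe left out, the dimmer of the Egr3 pair, was not well above background on any of the 16 arrays.

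Receptor tyrosine kinases such as the VEGF receptors activate ERK, which phosphorylates ETS-family partners of serum response factor (SRF) at CArG boxes, while kinases acting on CREB work through cAMP response elements (CRE). The early gene products then bind DNA themselves: Egr proteins are zinc-finger factors, Fos and Jun proteins pair as AP-1, Atf3 pairs with Jun proteins, and Nr4a1 is an orphan nuclear receptor. Dusp1 removes phosphate from MAP kinases and so limits the signal that induced it. In the retina these genes are known to respond to light, injury and growth factors, in neurons, glia and vessels alike.

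The samples were whole retinas of C57Bl6 mice, each taken 24 h after an injection into the vitreous. In 3 groups the age was 8 days, and the injection held 4 µg hFc (the control, 4 samples), 4 µg Dll4-Fc (a soluble form of the Notch ligand Dll4, 4 samples) or 1 µg VEGF-A (the growth factor, 5 samples). A group of 3 samples received VEGF Trap, a decoy receptor that binds VEGF, for which the labels give neither dose nor age. Sample cRNA was labelled with Cy3 and hybridised against a Cy5 pool of equal amounts of RNA from the whole experiment, so each value is the log2 of sample over pool, and a value of 0 is the level of that pool. The labels do not say whether samples came from separate animals, so p-values measure only the spread between these samples. All arrays of a group of 4 lay on 1 slide, hFc on slide 1 and Dll4-Fc on slide 2, so slide and treatment cannot be told apart wherever these groups are compared. VEGF-A and VEGF Trap arrays shared slides 3 and 4.

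Across the series, 84.9 to 91.0% of spots were well above background in Cy3 and none was saturated. The scanner software marked 2350 to 2599 spots as outliers on each hFc array and 12 to 213 on each of the others, and marked spots were left out. Of 10 retinal neuron markers, 9 were kept, and all 9 were well above background on all 16 arrays. Lens crystallin signal varied between samples of the same group, its summed level running from 0.464 to 58.6 over the hFc arrays, where 1 is the array's 75th percentile. In whole tissue, fewer cells of a type and less RNA per cell cannot be told apart.

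The stretches just upstream of the members' start sites are shown because most of these genes moved together and such genes are known to carry the response elements named above. RefSeq windows (GRCm38.p6, from 250 bases before to 50 after each start) were at hand for 7 members, and the 150 bases before the start are given 5′ to 3′ on the gene's strand. Capitals mark TGACG, the core of the CRE, on either strand (CGTCA on the other), and the CArG box.
Egr2, chr10:67537719-67537868, plus strand: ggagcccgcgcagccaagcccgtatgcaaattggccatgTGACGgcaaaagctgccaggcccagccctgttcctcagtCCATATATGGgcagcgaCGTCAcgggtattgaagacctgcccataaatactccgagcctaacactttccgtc
Fos, chr12:85473740-85473889, plus strand: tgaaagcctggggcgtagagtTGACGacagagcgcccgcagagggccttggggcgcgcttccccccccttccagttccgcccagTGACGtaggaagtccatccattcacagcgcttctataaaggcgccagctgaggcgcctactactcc
Fosb, chr7:19310046-19310195, minus strand: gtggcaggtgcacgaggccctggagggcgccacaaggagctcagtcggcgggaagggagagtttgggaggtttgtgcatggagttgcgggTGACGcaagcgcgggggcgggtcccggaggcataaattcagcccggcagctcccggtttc
Junb, chr8:84978749-84978898, minus strand: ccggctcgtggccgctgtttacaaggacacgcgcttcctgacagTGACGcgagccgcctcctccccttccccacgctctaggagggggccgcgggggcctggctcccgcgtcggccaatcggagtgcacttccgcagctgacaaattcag
Atf3, chr1:191183334-191183483, minus strand: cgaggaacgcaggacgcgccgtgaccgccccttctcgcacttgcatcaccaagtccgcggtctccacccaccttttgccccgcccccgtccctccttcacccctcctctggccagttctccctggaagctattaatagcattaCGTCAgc
Nr4a1, chr15:101266696-101266845, plus strand: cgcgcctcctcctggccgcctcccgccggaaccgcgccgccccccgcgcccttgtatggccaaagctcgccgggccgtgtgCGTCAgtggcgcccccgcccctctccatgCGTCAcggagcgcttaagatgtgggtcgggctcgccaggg
Dusp1, chr17:26508473-26508622, minus strand: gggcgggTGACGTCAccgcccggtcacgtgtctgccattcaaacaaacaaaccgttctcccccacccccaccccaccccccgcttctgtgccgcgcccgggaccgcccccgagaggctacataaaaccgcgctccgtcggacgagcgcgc

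A TGACG core was found in a window of all 7 of these genes, against 23.0% of 27018 genes in the table. By window it was found in 9 of their 11, against 20.8% of 32841 windows. Some of the 9 are overlapping Egr2 windows that hold the same cores, so they are not separate finds. Fos carries it at −129 and −66 from the start, Junb at −106 and Fosb at −60. In the Dusp1 window, 2 overlapping cores form the full element TGACGTCA from −143 to −136, a sequence found in 1.79% of windows and in no other member. Egr2 holds a CArG box at −72 between TGACG cores at −111 and −55, and was the one member of the 7 with a CArG box in these windows (1.63% of all windows). The Egr site GCGNGGGCG was found in Fosb at −50 and Nr4a1 at −60 (5.55% of windows), and the AP-1 site TGANTCA in none of the 7 (7.81% of windows). Both strands were searched, over the whole window and over every start given for a gene, of which Egr2 has 5. A match is a description of these letters only.

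VEGF-A raised most of the immediate early genes a day after injection. Of 13 probes tested against hFc, 10 rose and none fell, where 5.68% of all 38887 probes tested rose, and they covered 8 of 9 genes (Egr1, Egr2, Fos, Fosb, Junb, Atf3, Nr4a1 and Ier2). The median log2 difference of the 13 probes was 1.02, against −0.04 over all probes. In 9 of the 13, every VEGF-A sample lay above every hFc sample, which held for 7.52% of all probes. Dusp1 could not be tested against hFc because the scanner marked its spot on all 4 control arrays. The exception among the tested genes was Egr3.

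**Figure D1:**
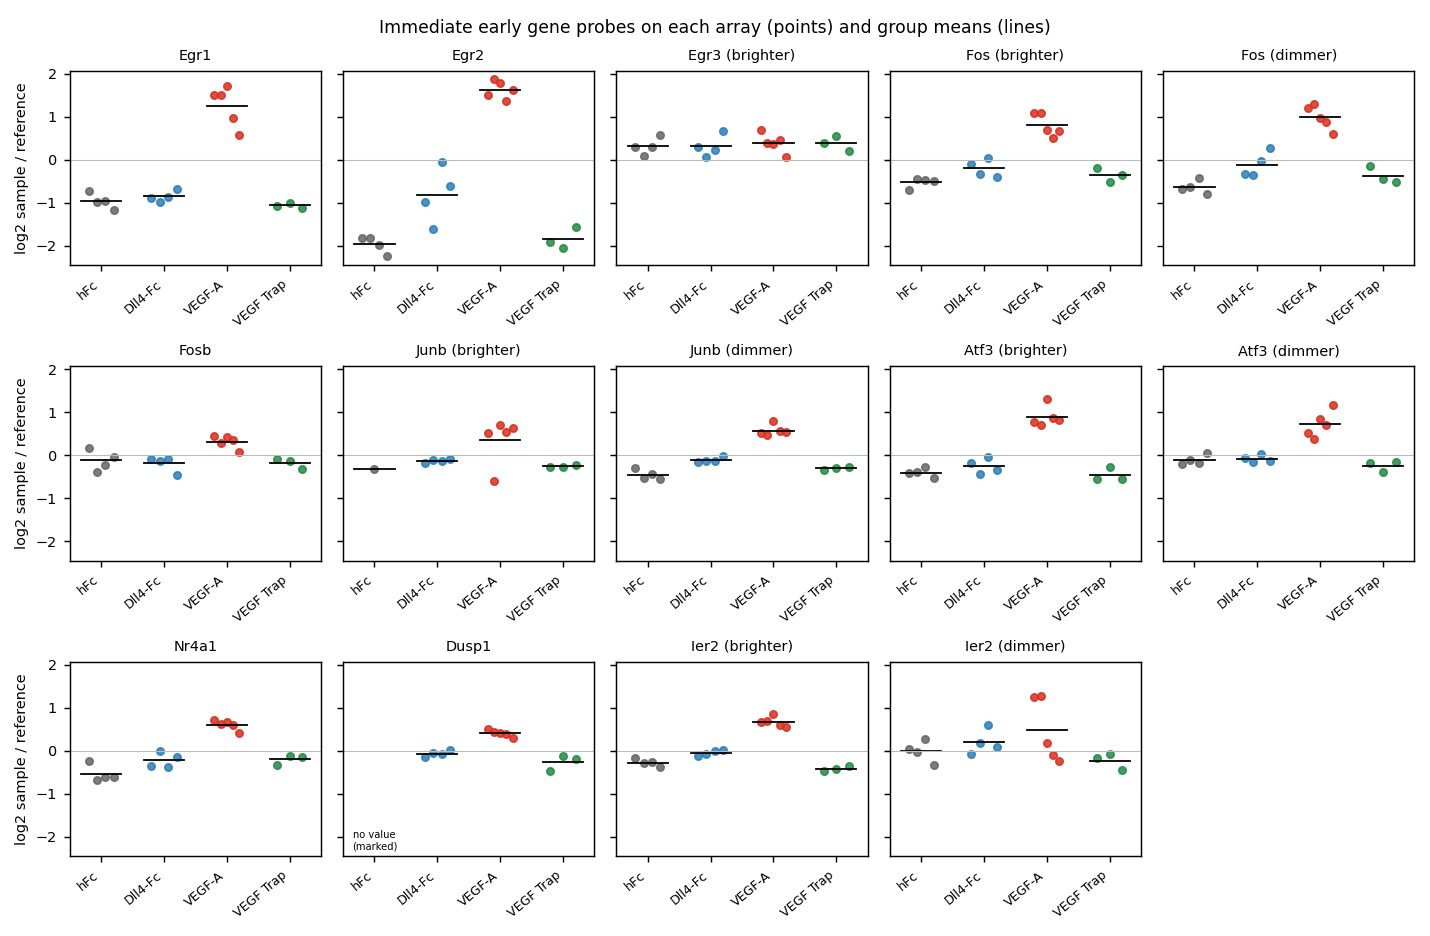
Each panel is 1 probe, with the log2 ratio of sample over the pooled reference on the vertical axis, a point per array and a line at the group mean. The 5 VEGF-A samples stand above the other 3 groups for Egr1, Egr2, both Fos probes and both Atf3 probes, while the 4 groups lie at the same height for Egr3.

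Of the zinc-finger factors, Egr2, best known for its role in myelinating glia and hindbrain patterning, moved furthest. It was at −1.83, −1.82, −1.99 and −2.25 in the 4 hFc samples and at 1.5, 1.87, 1.79, 1.37 and 1.63 in the 5 VEGF-A samples. In these values no VEGF-A sample came within 3 log2 units of the control mean of −1.97. The difference was 3.60 ± 0.24 (SE), or 12.1-fold (limma, adjusted p = 4.5e-08). In the VEGF Trap samples Egr2 stood at −1.92, −2.04 and −1.56, inside or near the control range. The Dll4-Fc samples lay between, at −0.97, −1.62, −0.06 and −0.62, and were the most spread of the 4 groups for this gene (SD 0.66, n = 4). The order of the group means was thus hFc, VEGF Trap, Dll4-Fc and VEGF-A, and of the neighbours in that order only the first pair did not pass the test. The lowest Cy3 signal of this probe was 47.7 units, where the array medians were 143 to 316. Another background correction and scaling (normexp and loess) put hFc at −1.47, −1.41, −1.57 and −0.86. VEGF-A was then at 1.36, 1.73, 1.66, 1.21 and 1.54. The groups stayed apart, but by less than above, so the 12.1-fold size depends on the processing.

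Egr1, the founding member of the family and a direct SRF target, was at −0.72, −0.99, −0.97 and −1.18 with hFc and at 1.51, 1.52, 1.70, 0.96 and 0.58 with VEGF-A. The groups were far apart, although the 5 VEGF-A samples differed among themselves more than those of the other groups (SD 0.47). VEGF-A raised Egr1 by 2.22 ± 0.19 (SE), a 4.66-fold change (adjusted p = 6.8e-07). Dll4-Fc samples read −0.88, −0.97, −0.86 and −0.68 and VEGF Trap samples −1.07, −1.0 and −1.12. These 3 groups lay within 0.21 of each other in their means and none of their pairs passed the test.

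Egr3, a relative of Egr1 best studied in neurons and in muscle spindles, showed no such step. By its brighter probe it was the member that did not pass in any comparison. It read 0.30, 0.08, 0.29 and 0.57 with hFc and 0.68, 0.39, 0.36, 0.45 and 0.08 with VEGF-A. The groups overlapped over their whole range, and the difference was 0.08 with a 95% interval from −0.22 to 0.39 (adjusted p = 0.79). The probe was well above background on all arrays but dim, with processed Cy3 signals of 10.7 to 27.0 units where the array medians were 143 to 316. The dimmer Egr3 probe carried no measured ratio, since the software replaced its signal by a floor value on all 16 arrays.

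Among the AP-1 genes, Fos was measured by a pair of probes that agreed in direction and nearly in size. The brighter lies in the coding sequence, with 2 of its 3 reading frames free of stop codons, and is shown as the probe behind the Fos values printed in full.
Fos, brighter probe: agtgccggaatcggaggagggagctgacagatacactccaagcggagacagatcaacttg
By this probe Fos was at −0.69, −0.44, −0.48 and −0.49 with hFc and at 1.08, 1.08, 0.70, 0.52 and 0.67 with VEGF-A. The ranges were nearly 1 log2 unit apart, and Fos rose by 1.33 ± 0.13 (SE), 2.52-fold (adjusted p = 4.7e-06). The dimmer probe ran from −0.80 to −0.43 with hFc and from 0.60 to 1.29 with VEGF-A, a difference of 1.62 (adjusted p = 3.1e-06). Both probes were highest on VEGF-A samples 1 and 2, which shared slide 3.

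Fosb, the Fos relative whose truncated form builds up under lasting stimulation, moved least among the genes that rose. It was at 0.18, −0.38, −0.24 and −0.03 with hFc and 0.45, 0.29, 0.42, 0.35 and 0.07 with VEGF-A. The lowest VEGF-A sample lay below the highest control, so the groups overlapped. The difference of 0.43 ± 0.12 (SE), 1.35-fold, passed with an adjusted p of 0.037, and that call depends on single arrays. It was lost without hFc 2 (0.35, adjusted p = 0.129), hFc 3 (0.39, 0.11) or hFc 4 (0.46, 0.0552), and without VEGF-A 1, 2, 3 or 4 (0.40 to 0.44, adjusted p from 0.0634 to 0.0861).

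Junb, a Jun protein that pairs with Fos family members, has 2 probes that overlap by 22 bases, shown because the dimmer probe was called and the brighter was not.
Junb, stretch common to both probes: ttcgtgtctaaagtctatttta
By the dimmer probe Junb was at −0.29, −0.52, −0.42 and −0.56 with hFc and at 0.51, 0.46, 0.80, 0.57 and 0.53 with VEGF-A. The groups were well apart, and Junb rose by 1.02 ± 0.08 (SE), 2.03-fold (adjusted p = 3.0e-07). The brighter probe gave 0.53, −0.59, 0.71, 0.53 and 0.65 with VEGF-A, and of the controls only hFc 2, at −0.31, was used because the other 3 spots were marked. VEGF-A 2 stood alone below 0, on an array where the dimmer probe read 0.46. The brighter probe's difference was 0.68 (adjusted p = 0.31), with the single control assumed to vary like the other groups, and 0.92 without VEGF-A 2. With the marked spots kept, the controls were at −0.23, −0.31, −0.58 and −0.57, and the probe passed with all 5 VEGF-A arrays (0.79 ± 0.20 SE, adjusted p = 0.0237). It also passed in the value table the authors deposited (0.79, adjusted p = 0.0166).

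Atf3, a stress-induced factor of the ATF/CREB family, rose by both of its probes. The brighter was at −0.42, −0.39, −0.28 and −0.54 with hFc and at 0.77, 0.71, 1.31, 0.87 and 0.82 with VEGF-A. All 5 treated samples lay about 1 log2 unit or more above the highest control, a difference of 1.3 ± 0.12 (SE), 2.47-fold (adjusted p = 2.7e-06). The dimmer probe ran from −0.20 to 0.06 and from 0.38 to 1.16, with a difference of 0.83 (1.77-fold, adjusted p = 0.00052). The probes did not rank the VEGF-A samples alike, VEGF-A 3 being highest by the brighter and VEGF-A 5 by the dimmer.

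Nr4a1, the orphan nuclear receptor also called Nur77, was at −0.24, −0.68, −0.60 and −0.61 with hFc and at 0.72, 0.63, 0.66, 0.59 and 0.41 with VEGF-A. The treated samples lay close together (SD 0.12) and stood clear of the controls. Nr4a1 rose by 1.13 ± 0.11 (SE), 2.19-fold (adjusted p = 2.9e-06). It was also the one member with an unadjusted p under 0.05 for VEGF Trap against hFc (difference 0.33, adjusted p = 0.16).

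Ier2, a nuclear protein linked to cell movement, was at −0.16, −0.29, −0.26 and −0.38 with hFc and at 0.68, 0.70, 0.86, 0.59 and 0.55 with VEGF-A by its brighter probe. The spread within each group was small (SD 0.09 and 0.12), and Ier2 rose by 0.95 ± 0.07 (SE), 1.93-fold (adjusted p = 2.9e-07). The dimmer Ier2 probe, with Cy3 signals of 5.5 to 46.0 units, gave 1.26 and 1.28 on the VEGF-A arrays of slide 3 and 0.19, −0.11 and −0.23 on those of slide 4. This probe therefore split by slide, and its difference of 0.49 had a 95% interval from −0.14 to 1.12 (adjusted p = 0.36).

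Dusp1, the MAP kinase phosphatase, was at 0.51, 0.45, 0.41, 0.40 and 0.30 with VEGF-A, the tightest VEGF-A group of any member (SD 0.075, n = 5). It was at −0.14, −0.05, −0.08 and 0.02 with Dll4-Fc and −0.46, −0.12 and −0.18 with VEGF Trap, both below every VEGF-A sample. With the marked control spots kept, the hFc samples were at −0.18, −0.61, −0.58 and −0.28, and VEGF-A stood above them by 0.83 ± 0.10 (SE), 1.77-fold (adjusted p = 3.6e-05).

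**Figure D2:**
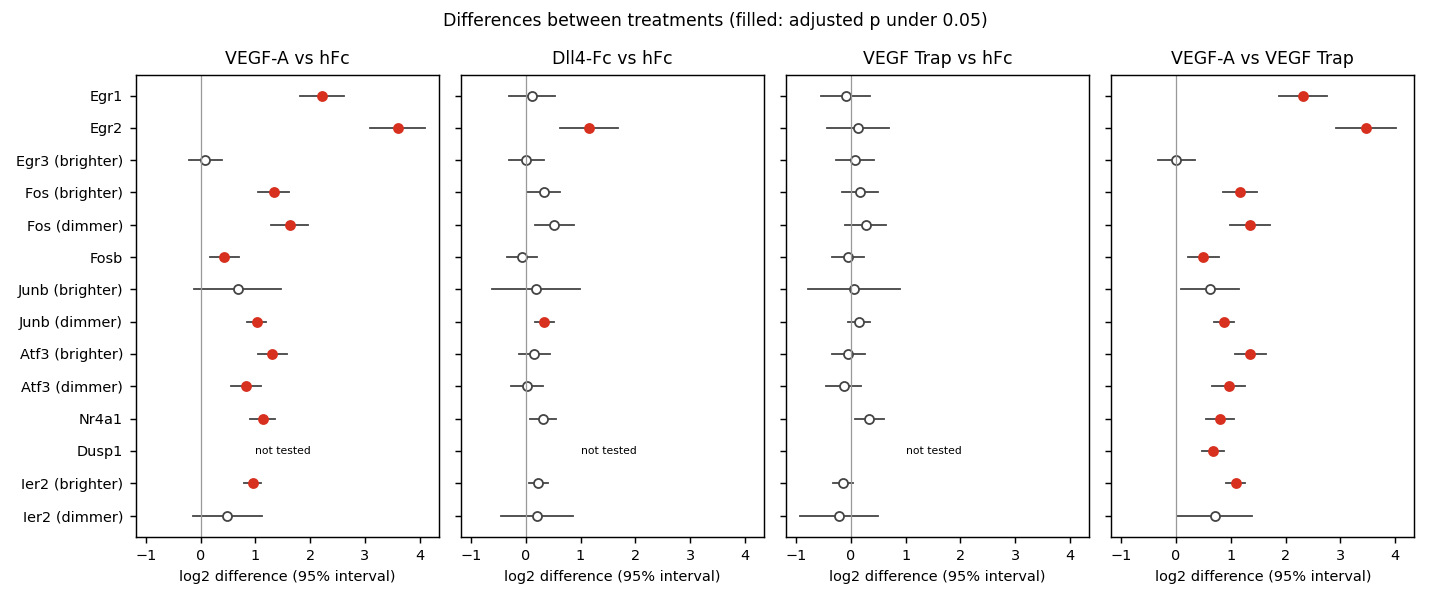
Each row is 1 probe and each panel 1 comparison, with the log2 difference on the horizontal axis, bars for the 95% interval and filled points where the adjusted p is under 0.05. The intervals for VEGF-A against hFc run from 3.1 to 4.1 for Egr2 and from −0.22 to 0.39 for the brighter Egr3 probe, and no point is filled for VEGF Trap against hFc.

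VEGF-A against VEGF Trap, the pair that shares slides, gave the same picture. Of 14 probes, 11 rose with VEGF-A and none fell, where 9.76% of 39788 probes rose, and the 11 covered 9 of 10 genes, Dusp1 among them. The groups did not overlap in 11 of 14 probes, against 12.6% of all probes. The difference was 3.47 ± 0.26 (SE) for Egr2, 2.32 ± 0.20 for Egr1, 1.36 ± 0.13 for the brighter Atf3 probe and 1.17 ± 0.15 for the brighter Fos probe (largest adjusted p of the 4, 4.0e-05). Ier2 by its brighter probe stood 1.09 higher, Junb by its dimmer probe 0.88, Nr4a1 0.80 and Dusp1 0.67. The probes not called were those of Egr3 (0.01, 95% interval −0.32 to 0.34), the brighter Junb probe (0.63, adjusted p = 0.10) and the dimmer Ier2 probe (0.71, adjusted p = 0.15). Fosb passed (0.49, adjusted p = 0.019), but not without VEGF Trap 3 (0.42, adjusted p = 0.0985). This comparison and VEGF-A against hFc share the VEGF-A samples.

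Within a slide the differences kept their direction for all 14 probes, but not all were clear of 0. Egr3 differed by only 0.06 on slide 3 and 0.09 on slide 4, and the brighter Junb probe by 0.25 ± 0.31 (SE) on slide 3. On slide 3, with 2 arrays of each treatment, VEGF-A stood above VEGF Trap by 2.55 for Egr1, 3.67 for Egr2 and 1.44 for the brighter Fos probe. On slide 4, with 3 VEGF-A arrays and 1 VEGF Trap array assumed to vary like the other groups, the same probes differed by 2.2, 3.16 and 0.99. These single-slide fits took their spread also from the hFc and Dll4-Fc arrays, so their p-values do not measure the spread within a slide. The slide 3 values of these probes passed the test, with adjusted p-values of 1.9e-06 to 0.00029. Nr4a1 passed on slide 3 (0.90, adjusted p = 0.0070) but not on slide 4 (0.70, adjusted p = 0.0601), and Fosb on neither (0.48 and 0.60, adjusted p = 0.154 for both). With slide as a block over these 8 arrays, Egr1 differed by 2.4 (adjusted p = 0.00091), Egr2 by 3.45 (1.8e-05) and the dimmer Ier2 probe, now called, by 0.96 (0.030).

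**Figure D3:**
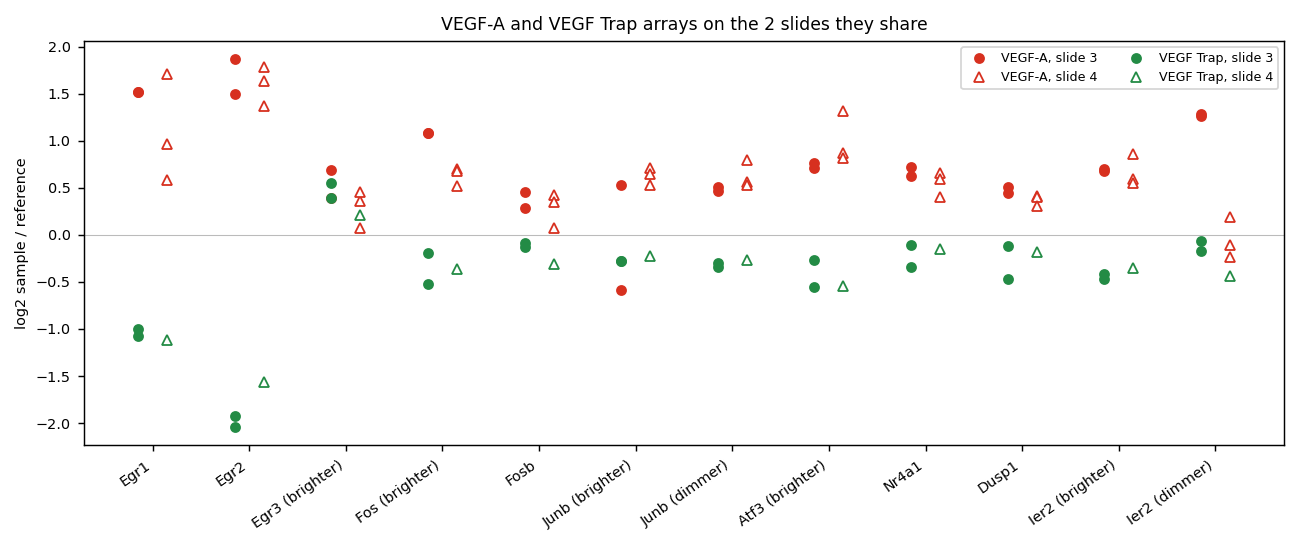
The log2 ratio of sample over reference for 12 probes on the VEGF-A arrays (red) and VEGF Trap arrays (green) of slide 3 (filled circles) and slide 4 (open triangles). Egr1 and Egr2 are more than 1.5 log2 units apart between treatments on both slides, while the dimmer Ier2 probe differs by 1.39 on slide 3 and by 0.39 on slide 4.

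Few of the immediate early probes passed the test for Dll4-Fc against hFc. The median log2 difference of the 13 probes tested was 0.21, against −0.025 over all probes, and 6 had an unadjusted p under 0.05. Shifts too small to pass are not excluded. By the adjusted p, 2 rose and none fell, where 2.65% of all probes rose. These were Egr2, higher by 1.15 ± 0.25 (SE), 2.22-fold (adjusted p = 0.013), with all 4 samples above every control, and the dimmer Junb probe, higher by 0.34 ± 0.08 (adjusted p = 0.033). Neither call stood with normexp and loess values (Egr2 0.58, adjusted p = 0.20; Junb 0.21, adjusted p = 0.19). The Junb call was also lost with Cy3 alone (0.27, adjusted p = 0.126) and without any 1 of hFc 2, 3 and 4 or of the 4 Dll4-Fc arrays (0.30 to 0.36, adjusted p from 0.0626 to 0.108), and held without hFc 1. In 6 of 13 probes the groups did not overlap, all with Dll4-Fc higher, against 5.5% of all probes: Egr2, both Fos probes, both Junb probes (the brighter with 1 control value) and the brighter Ier2 probe.

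The Fos probes stood 0.32 and 0.52 above hFc with Dll4-Fc (adjusted p = 0.34 and 0.12) and Nr4a1 0.32 (adjusted p = 0.20). The dimmer Fos probe passed with normexp and loess values (0.56, adjusted p = 0.0453). Nr4a1 passed without hFc 1 (0.41, adjusted p = 0.0485), the control sample that stood above the other 3. For Egr1 the difference was 0.12, with a 95% interval from −0.30 to 0.53, far below the 2.22 seen with VEGF-A. Set directly against VEGF-A, 11 of 14 probes were lower with Dll4-Fc and none higher, where 6.71% of all probes were lower. The differences were −2.45 for Egr2, −2.11 for Egr1, −1.15 for the brighter Atf3 probe and −1.01 for the brighter Fos probe (largest adjusted p of the 4, 6.7e-05). The 11 probes covered every member except Egr3.

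VEGF Trap left no member different from hFc by the test. Of 13 probes, 0 passed and 1 had an unadjusted p under 0.05, where 2.69% of all probes passed in either direction. The differences ran from −0.22 for the dimmer Ier2 probe to 0.33 for Nr4a1, with a median of 0.05. For Egr1 the 95% interval was −0.55 to 0.35, for Egr2 −0.45 to 0.70 and for the brighter Fos probe −0.16 to 0.49, so shifts inside these bounds are not excluded. Dll4-Fc stood above VEGF Trap for Egr2 (1.02, adjusted p = 0.023) and the brighter Ier2 probe (0.37, adjusted p = 0.010), 2 of 14 probes where 7.17% of all probes were higher. The Egr2 call was lost without Dll4-Fc 4 (0.96, adjusted p = 0.0517), VEGF Trap 1 (0.98, 0.0911) or VEGF Trap 2 (0.93, 0.0705), and the Ier2 call without VEGF Trap 1 (0.34, 0.0578).

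Markers of some cell types moved with the same treatments. None of the 9 retinal neuron, 4 lens or 3 pigment epithelium markers tested passed against hFc with VEGF-A, Dll4-Fc or VEGF Trap. With VEGF-A, 5 of 8 endothelial markers rose against hFc and 1 fell, where 6.72% of 17615 genes tested by their brightest probe rose and 4.22% fell. The summed level of the list was 26.8 to 30.3 against 24.0 to 27.6. All 4 red cell genes rose (summed level 58.5 to 109.0 against 18.5 to 39.9), as did 2 of 4 mural genes (12.1 to 17.7 against 7.0 to 8.10) and 1 of 3 astrocyte genes, Gfap, by 2.36. Of 4 Müller glia markers, the glutamate transporter Slc1a3 rose by 0.81 (adjusted p = 0.00296) and the glutamine synthetase Glul fell by 1.53 (adjusted p = 0.000802). Of the 5 microglial and 3 tested neutrophil markers none passed, the neutrophil sum being 0.0623 to 0.115 with VEGF-A and 0.0647 to 0.140 with hFc. With VEGF Trap, 7 of 8 endothelial markers fell against hFc (17.9 to 18.9), where 2.22% of genes fell, while no immediate early probe passed. With Dll4-Fc, all 5 microglial markers rose (18.4 to 21.7 against 9.63 to 12.4) and all 4 Müller glia markers fell (18.3 to 33.2 against 44.7 to 47.6), where 3.47% of genes rose and 1.68% fell. Gfap rose there too (1.13, adjusted p = 0.000474). None of the endothelial, mural, red cell or microglial markers was below background on any array, and the part of these lists in the immediate early values was not tested.

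Other genes of the early response rose with VEGF-A in part. Of 17 other immediate early transcription factors tested by their brightest probe, 5 rose and 0 fell, where 6.72% of all genes rose. These were Maff, a small Maf protein (3.29 ± 0.12 SE, 9.78-fold), Fosl1, an AP-1 partner (2.44), Myc (1.44), Csrnp1 (1.04) and Klf2 (0.65). Jun itself did not pass (0.13, adjusted p = 0.58), nor did the neuronal factor Npas4. Of 18 regulators 7 rose, led by the phosphatases Dusp2 (1.80) and Dusp6 (1.45) and the mRNA decay factor Zfp36 (0.90), and 1 fell, Rgs2, a regulator of G protein signalling (−0.51), where 4.22% of genes fell. The medians of these lists were 0.16 and 0.17, against −0.05 over all genes.

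The effectors, most of them secreted or on the cell surface, had the largest median difference of these lists. Of 8 tested, 5 rose and 0 fell, where 6.72% of all genes rose and 4.22% fell. Their median was 1.31, against 1.13 for the 9 members by their brightest probe. The urokinase receptor Plaur stood 4.3 ± 0.16 (SE) above hFc, 19.7-fold, and the matricellular proteins Ccn1 and Ccn2 2.96 and 2.75. Of 9 genes for the kinases and factors upstream, 1 rose, where 6.72% of all genes rose. It was Elk3, an ETS partner of SRF (1.29 ± 0.06, adjusted p = 1.65e-09). Srf, Creb1 and Mapk3 did not pass.

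**Figure D4:**
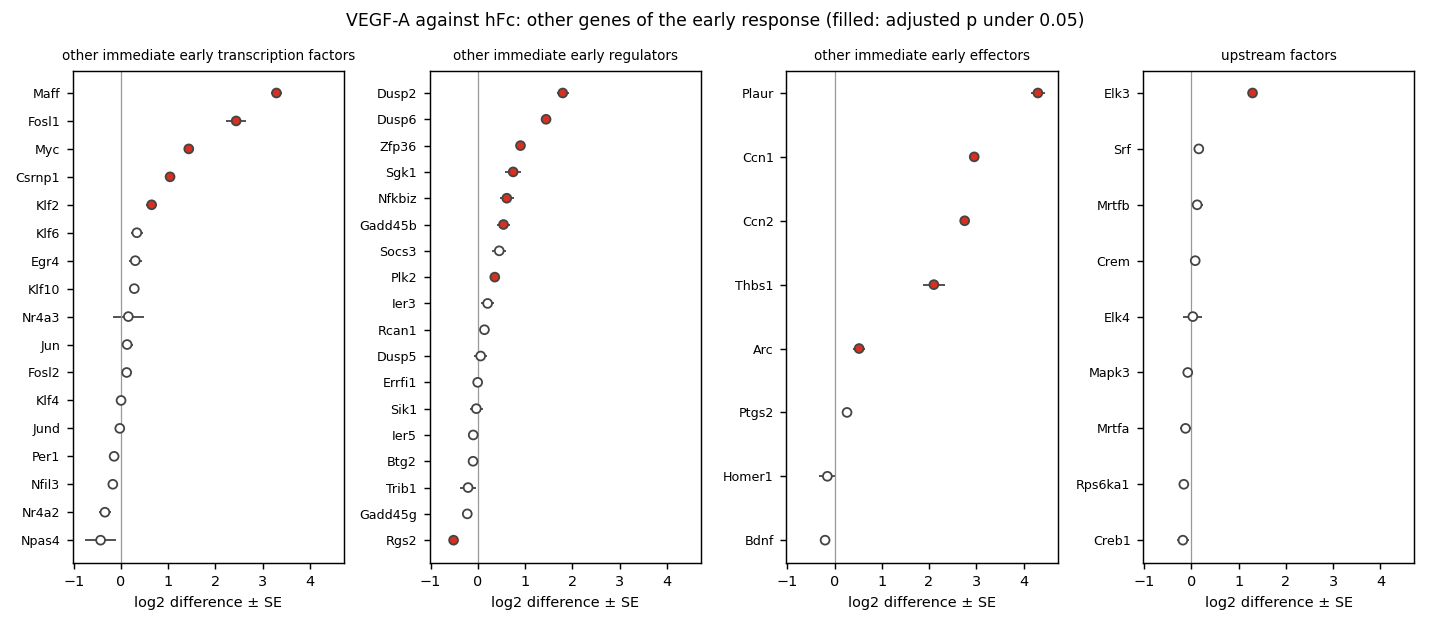
Log2 difference between VEGF-A and hFc (points, with bars for 1 SE) for the brightest probe of each gene in 4 lists, filled where the adjusted p is under 0.05. Plaur at 4.3 and Maff at 3.29 lie furthest right, and Elk3 at 1.29 is the only filled point among the upstream factors.

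In the same lists Dll4-Fc raised 3 of 52 genes tested against hFc, or 5.77%, near the 3.47% of all genes that rose. They were Myc (0.91), the stress gene Gadd45g (1.54) and Elk3 (0.36), and none of the 8 effectors passed. Gadd45g differed between the treatments, standing 1.76 higher with Dll4-Fc than with VEGF-A (adjusted p = 2.2e-08). VEGF Trap lowered 3 of the 52, Dusp2 (−0.76), Plaur (−1.11) and Elk3 (−0.44), and raised 1, Rgs2 (0.65), shares of 5.77% and 1.92% where 2.22% of genes fell and 0.993% rose. Elk3 thus passed the test in all 3 comparisons with hFc, higher with VEGF-A and Dll4-Fc and lower with VEGF Trap, unlike any of the 9 members tested. The comparisons share the hFc samples.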

How the data were processed

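Per the labels, retina RNA was amplified, labelled with Cy3 and hybridised with a Cy5 reference pool of RNA from the experiment, without dye swaps, on 16 Agilent arrays. Per the submitters' processing notes, images were read with Feature Extraction 9.5.1.1. The deposited log10 LogRatio (Cy5 over Cy3, background-subtracted and dye-normalized per the file headers) was turned to log2 of sample over reference. The deposited intensity columns and other flags, per the file headers, gave background, floor and outlier marks. The value table the authors deposited held natural log ratios, sample over reference, which on every array followed the scanner's LogRatio with its sign turned (r of at least 0.999). Its medians ran from −0.0058 to 0.0218, and 25.1 to 27.5% of each column was empty, for reasons not given in the labels.

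Outlier spots were left out, spots of a probe averaged, and probes tested only if their Cy3 spot was marked well above background on 3 or more arrays (39788 of 43426). The 4 groups were fitted together in R 4.3.3 by limma 3.58.1, 2-sided, with Benjamini-Hochberg adjustment over all probes within each of 6 comparisons at 0.05. Residual degrees of freedom were 12, with 2.41 added by the prior. The method was tried on simulated arrays for VEGF-A against hFc, with 35209 probes. It called 29% of the added log2 changes of 0.5 and 70% of those of 1, with 2 false calls, so true changes of these sizes can be missed. Few of the simulated probes were given a change, and the noise was independent with no slide effect. The rates therefore need not hold for the real arrays. The number of arrays limits the precision. Fold changes are 2 to the power of the log2 difference. Slides were read from the scanner barcodes. Replicates are numbered in accession order and pair nothing.

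The members and lists were chosen with earlier results of these data known. All members are given. From the other lists, genes were counted by their brightest probe, and the 3 with the smallest p among those called were named per comparison. Fosl1, Klf2, Jun, Npas4 and Rgs2 with VEGF-A, and the upstream genes that did not pass, were named after their values were seen. Some genes of these lists and some sequences are not reported here, and the counts leave those genes out. Patterns like those of Egr1, Fos and Atf3 were ranked by Pearson's r over genes well above background on all arrays. Alternatives were normexp (offset 50) with loess, Cy3 alone, median centring, other filters, outlier spots kept, slide as a block, single slides, hFc 1 and 2 (which share a title code) averaged, the value table, and each array left out. Promoter sequences came from RefSeq (GRCm38.p6). The promoters of Egr1, Egr3 and Ier2 and the probes' genome positions were not used here.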

Additional observations from a re-analysis of the deposited data

Results flagged for a closer look

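Each of 40 sets of 4 or 5 arrays of a group on a probe was searched for an array far from the others by Dixon's test, and 4 had one, where chance gives about 1 in 20. Junb by its brighter probe read −0.59 on VEGF-A 2, against 0.53 to 0.71 on the other 4 VEGF-A arrays, while the dimmer Junb probe on that array was at 0.46. Atf3 by its brighter probe read 1.31 on VEGF-A 3, above 0.71 to 0.87 on the others. Nr4a1 read −0.24 on hFc 1, above −0.68 to −0.60 on the other controls. Fosb read −0.46 on Dll4-Fc 4, below −0.13 to −0.08 on the other Dll4-Fc arrays.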

How the results depend on the processing

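For VEGF-A against hFc, against VEGF Trap and against Dll4-Fc, the number of members called stayed within 1.5 times its value under every alternative run, as did the 0 called for VEGF Trap against hFc. For Dll4-Fc against hFc the 2 called probes, Egr2 and the dimmer Junb probe, were both lost with normexp and loess, where 1 other, the dimmer Fos probe, was called. With Cy3 alone 1 was called, Egr2, and 1 to 3 when an array was left out. For Dll4-Fc against VEGF Trap the 2 became 1 with slide 3 only and 0 with slide 4 only, and 0 to 2 when an array was left out. Signs turned by more than 1 SE in 11 values, none of which passed with either setting. With slide 4 only, the dimmer Ier2 probe was at −0.04 for VEGF-A against hFc and 0.25 for Dll4-Fc against VEGF-A, and the brighter Egr3 probe at −0.10 for VEGF Trap against hFc and 0.11 for Dll4-Fc against VEGF Trap. With normexp and loess, Fosb was at 0.082 for Dll4-Fc against hFc and Egr2 at −0.28 for VEGF Trap against hFc, also with outlier spots kept, a setting added after seeing the data. With Cy3 alone, Dll4-Fc against hFc was −0.10 for Egr1 and 0.18 for Fosb, and VEGF Trap against hFc was 0.14 for Fosb. The cause was not tested. Signs also turned by 1 SE or less in 25 other values, of Egr2, Egr3, Fosb, Junb and Nr4a1, and in 24 values when an array was left out, none of them past the test. Dusp1 with marked spots kept stood 0.35 above hFc with Dll4-Fc (adjusted p = 0.0978) and passed only in that added setting (0.47, adjusted p = 0.0122).

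Over all probes, the 1046 called for VEGF Trap against hFc became 2503 with normexp and loess, 388 with Cy3 alone, 539 with hFc 1 and 2 averaged and 245 with slide 4 only. The 6714 for VEGF-A against VEGF Trap became 4183 and 3311 on slides 3 and 4 alone, and the 4769 for Dll4-Fc against VEGF Trap became 1594 on slide 4. With an array left out, these 3 counts ran from 259 (without VEGF Trap 1) to 933, from 4173 (without VEGF Trap 1) to 6609 and from 2205 (without VEGF Trap 1) to 4760. They moved by over 1.5 times also without VEGF Trap 3 (469, 4426 and 2884), and the first also without hFc 1, 2, 3 or 4 (651, 426, 442 and 607). The shares of all probes printed for these comparisons move with them. No paired analysis was possible because the replicate numbers follow accession order and pair no samples. VEGF-A 4 and VEGF Trap 3 share a title code whose meaning the labels do not give. Dim probes (Egr3 and the dimmer Ier2 probe) limit what can be seen for those genes.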

Other observations

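Outside the 10 members, the genes whose pattern over the 16 arrays was most like a member's were ranked among 14220 genes, as a description of arrays that share a reference and 4 groups. Nearest to Egr1 were Dusp6, a phosphatase of ERK (r = 0.975), the myosin Myo1e (0.974), the mitotic motor Kif4 (0.973), Csrnp1 (0.973) and the collagen chaperone Serpinh1 (0.971), each between 0.83 and 1.44 higher with VEGF-A than with hFc. Nearest to Fos were the cytoskeletal linker Msn (0.969, 2.02 higher), the replication helicase subunit Mcm4 (0.961), Rrbp1 (0.959), Hao1 (0.953) and Frmd8 (0.951). Nearest to Atf3 were the EGF receptor ligand Areg (0.983, 2.21 higher), Csrnp1 (0.978), the interleukin receptor Il1r1 (0.976), Anxa5 (0.974) and Maff (0.973). Among the members themselves, r ran from 0.716 for Egr2 with Fosb to 0.970 for Egr2 with Ier2, leaving out Egr3, which reached at most 0.239, with Fosb. Genes were taken by their brightest probe, and those of Junb and Dusp1 had marked spots, so neither gene was in these pairs.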
